A study of Mus musculus with 2 samples.

Results

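The miR-17-92 cluster and its relatives were followed through 9 hairpin genes, chosen by symbol in GENCODE M21 from the 2202 annotated microRNA (miRNA) genes counted in aged mouse cortex. Mir17, Mir19a, Mir20a, Mir19b-1 and Mir92-1 belong to the miR-17-92 cluster, Mir106b, Mir93 and Mir25 to the miR-106b-25 cluster, and Mir92-2 is the other locus of miR-92a, in the miR-106a-363 cluster of the X chromosome. The material was left cerebral cortex of B6CASTF1/J mice, first-generation hybrids of C57BL/6J and CAST/EiJ, 18 to 20 months old and without a stated treatment. There was 1 group of 2 libraries of RNA shorter than 30 nt, which the labels number as biological replicates but tie to 1 donor record, so the spread between them may be technical. The labels disagree on the sex of the mice, which was not used. No comparison between conditions, ages or strains was possible.

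These clusters are polycistronic, which means that several hairpins are cut from 1 primary transcript. Drosha releases each hairpin, Dicer trims it, and an Argonaute protein keeps 1 arm, whose seed (bases 2 to 8) pairs with target messages. The miR-17-92 transcript is known as a MYC-driven promoter of proliferation, in the cortex above all in dividing progenitors, and the miR-106b-25 hairpins ride in the gene of the replication helicase subunit MCM7.

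The mature arms usually regarded as the functional product are shown because their seeds divide the members into 3 groups that cut across the clusters. All 9 members were found in the RefSeq miRNA table (GRCm38.p6). Sequences run 5′ to 3′ and capitals mark the seed. The miR-17 seed AAAGUGC is carried by 4 members.
miR-17-5p: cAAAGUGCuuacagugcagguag
miR-20a-5p: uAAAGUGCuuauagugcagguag
miR-106b-5p: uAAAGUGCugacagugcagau
miR-93-5p: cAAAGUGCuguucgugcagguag
The miR-19 seed GUGCAAA is carried by Mir19a and Mir19b-1.
miR-19a-3p: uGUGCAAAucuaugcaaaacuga
miR-19b-3p: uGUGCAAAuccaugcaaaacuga
The miR-92a seed AUUGCAC is carried by Mir92-1 and Mir92-2, which give an identical mature arm, and by Mir25. The arm of Mir92b, which is not a member, is added because most counted reads with this seed lay there.
miR-92a-3p: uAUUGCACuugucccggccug
miR-25-3p: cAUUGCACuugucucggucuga
miR-92b-3p: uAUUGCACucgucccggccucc

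Members of a seed group differ only outside the seed, at no more than 5 bases. Aligned from base 1 without gaps, miR-17-5p and miR-20a-5p differ at 2 of 23 bases (C1U and C12U, counted from the 5′ end with the miR-17-5p base first). The arms miR-19a-3p and miR-19b-3p differ at 1 (U11C, miR-19a-3p first). Over 21 bases, miR-92a-3p and miR-25-3p differ at 3, and miR-17-5p and miR-106b-5p also at 3. More differences set off miR-93-5p, with 4 from miR-17-5p over 23 bases and 5 from miR-106b-5p over 21. The mature arms of Mir17, Mir19a, Mir20a, Mir106b, Mir93 and Mir25 were found in the transcript of no other annotated miRNA gene, on either strand. The rest of the genome was not searched. The arm of Mir92-1 lies also in Mir92-2, whose hairpin shares a run of 22 bases with it, and the arm of Mir19b-1 lies also in Mir19b-2, with a shared run of 25 bases. The deposited tables keep multimapping reads on a separate line, outside the gene counts. How a read of such a shared arm was placed: not given in the sources used here.

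The hairpins lie close together on mm10. Mir17 (chr14:115043671-115043754), Mir19a (chr14:115044000-115044081), Mir20a (chr14:115044157-115044263), Mir19b-1 (chr14:115044305-115044391) and Mir92-1 (chr14:115044427-115044506) follow each other on the plus strand in an exon of the long noncoding RNA Mir17hg. With Mir18, which is not a member and lies between Mir17 and Mir19a, they span 836 bp. Mir106b (chr5:138165737-138165818), Mir93 (chr5:138165523-138165610) and Mir25 (chr5:138165321-138165404) lie within 498 bp of the minus strand, in introns of 2 annotated Mcm7 transcripts. Mir93 and Mir25 also lie in an exon of another Mcm7 transcript. Mir92-2 (chrX:52741838-52741928, minus strand) lies in no annotated gene of another type on its strand. The RNA of the hosts Mir17hg and Mcm7 was not measured.

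Libraries held 2381663 (replicate 1) and 4436398 (replicate 2) reads on the annotated strand of miRNA genes, and levels are given as CPM, a gene's reads scaled to that total. A read was taken as 1 short RNA, so no correction for length was made, and both arms of a hairpin are counted together. How evenly RNAs of different sequence enter such a library was not measured, so comparisons between genes are of counted reads. The limit that a count of 0 allows, 3 reads, corresponds to 1.26 and 0.676 CPM. The libraries differed in the share of unmapped reads, 30.8% and 14.6%, and of multimapping reads, 35.6% and 44.8%. The list of 11 neuronal miRNA genes summed to 90362 and 71516 CPM, with 8 of them at 10 reads or more in total. Most of this lay at Mir132, with 165873 of 215211 list reads in replicate 1 and 192314 of 317271 in replicate 2. The list genes under 10 reads were Mir124a-1, Mir124a-2 and Mir124a-3. The 8 listed embryonic stem cell genes summed to 1.68 and 1.13 CPM. No member had a read on the opposite strand.

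Mir93 stood above all other members, with 1223 CPM in replicate 1 and 1003 in replicate 2 (mean 1113 ± 156, SD, n = 2). Its lowest value lay above the highest value of any other member. Mir93 ranked 91 by mean CPM of 2202 genes, of which 627 had a read in replicate 1 and 681 in replicate 2. The genes next to it in that order were Mirlet7c-2, above it at a mean of 1134 ± 211 CPM, and Mir497, below it at 1076 ± 288 CPM, and neither differed from Mir93 beyond the spread of the libraries.

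Mir92-1, Mir106b and Mir17 formed the next tier, in which Mir106b lay above Mir17 in both libraries and Mir92-1 had no fixed place. Mir92-1 had 278 CPM in replicate 1 and 483 CPM in replicate 2 (mean 381 ± 145). Mir106b had 375 and 303 CPM (339 ± 50.5), and Mir17 had 334 and 268 CPM (301 ± 47.1). Mir92-1 was the lowest of the 3 in replicate 1 and the highest in replicate 2. Mir92-1, the leading member of its cluster by mean, ranked 133, between Mir28a (392 ± 21.2 CPM) and Mirlet7c-1 (371 ± 21.1 CPM), a smaller gap than its own spread.

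The remaining members separated clearly. Mir20a had 111 and 99.9 CPM in replicates 1 and 2 (106 ± 8.07), and Mir25 had 62.1 and 62.2 CPM (62.2 ± 0.0503). Mir92-2 had 16.8 and 18.9 CPM (17.9 ± 1.51), from 40 and 84 reads. None of these 3 ranges overlapped another. Mir19a and Mir19b-1, which make up the miR-19 seed group, were at the limit of detection: each had no read in replicate 1 and 2 reads in replicate 2 (0.451 CPM). Mir17 from the same transcript was at least 265-fold higher than either in replicate 1, taking 3 reads as the limit of a count of 0. In replicate 2 it was 594-fold higher (95% exact binomial interval 164 to 4906). These folds hold for counted reads only. Reads of the Mir19b-1 arm, shared with Mir19b-2, may lie among the multimapping reads. For Mir19a, copies of the arm outside annotated miRNA genes were not searched.

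**Figure D1:**
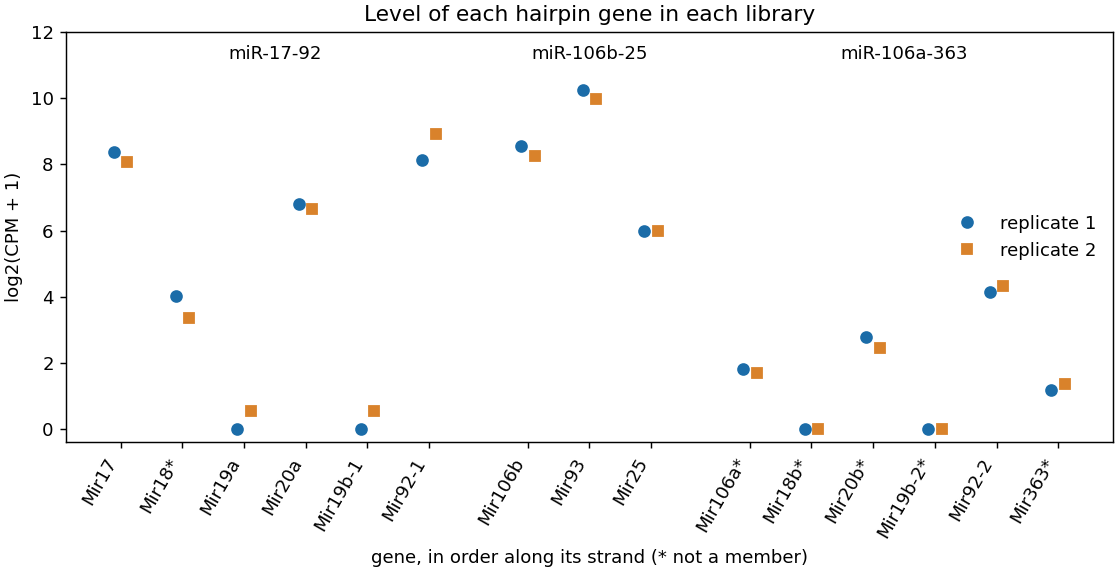
Level of each hairpin gene as log2(CPM + 1) on the vertical axis, for the 9 members and 6 other genes of the same clusters (asterisks), in order along the strand; circles are replicate 1 and squares replicate 2. Mir93 is highest in both libraries, Mir19a and Mir19b-1 lie at or near 0, and Mir92-1 is the member whose points lie farthest apart.

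Within the miR-17-92 cluster, neighbouring hairpins differed by orders of magnitude, and level did not follow position. The first hairpin, Mir17, and the last, Mir92-1, were high, Mir20a was intermediate, and Mir19a and Mir19b-1, which lie on either side of Mir20a, were nearly uncounted. Mir17 exceeded Mir20a 3.0-fold in replicate 1 (95% exact binomial interval 2.61 to 3.46) and 2.68-fold in replicate 2 (2.40 to 2.995), with intervals that overlapped. Mir18, of the related miR-18 seed, had 36 and 41 reads (15.1 and 9.24 CPM). In both libraries Mir17 exceeded it by over 20-fold, 22.1 (15.8 to 31.8) and 28.95 (21.2 to 40.6). These and all later intervals cover only the error of counting, as PCR copies of a molecule are not independent.

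**Figure D2:**
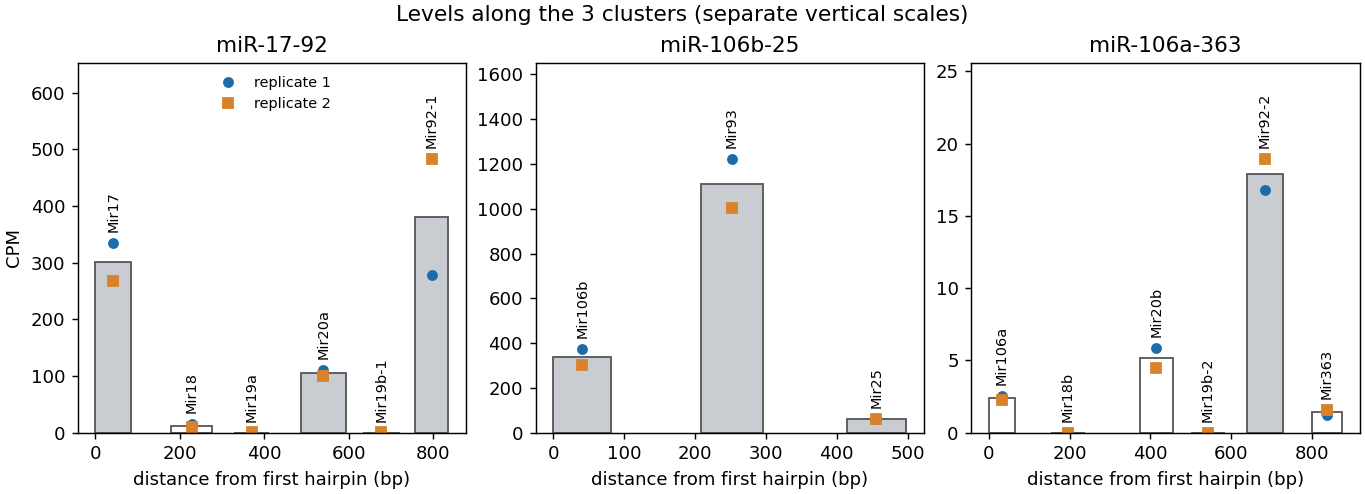
CPM along the 3 clusters, plotted against distance in bp from the first hairpin on a separate linear scale per cluster; bars give the mean of both libraries over each hairpin's length (grey for members, white for other genes), circles replicate 1 and squares replicate 2. The first and last hairpins, Mir17 and Mir92-1, are the highest of miR-17-92, and the middle hairpin, Mir93, leads miR-106b-25.

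The miR-106b-25 cluster kept almost the same composition in both libraries. Mir93 made up 73.7% of its reads in replicate 1 (72.3 to 75.1) and 73.3% in replicate 2 (72.2 to 74.4). Mir106b took 22.6% (21.3 to 23.9) and 22.2% (21.1 to 23.2), and Mir25 took 3.74% (3.17 to 4.38) and 4.55% (4.04 to 5.10). Each pair of intervals overlapped. Mir93 exceeded Mir106b by 3.26-fold and 3.31-fold, and Mir25 by 19.7-fold and 16.1-fold.

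Set against each other, the Mcm7 cluster was the more abundant in both libraries. Its 3 hairpins summed to 1659 CPM in replicate 1 and 1368 CPM in replicate 2 (1514 ± 206, SD, n = 2), and the 5 miR-17-92 members to 723 and 851 CPM (787 ± 90.5). The ranges did not overlap, but with 2 libraries of 1 group this carries no test. The ratio of the clusters was 2.29 in replicate 1 (2.17 to 2.43) and 1.61 in replicate 2 (1.54 to 1.67), and these intervals did not overlap. When Mir92-1 and Mir19b-1, the members whose mature arm lies at another locus as well, were left out, the mean ratio was 3.72 ± 0.00427 (SD, n = 2), nearly the same in both libraries. These loci count only in the miR-17-92 sum, so leaving them out could only raise the ratio. Any reads of these shared arms among the multimapping reads would be missing from the miR-17-92 sum. Together the 8 hairpins made up 0.238% and 0.222% of miRNA reads.

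Grouped by seed instead of by transcript, the miR-17 group held 85.1% of all member reads in replicate 1 (84.2 to 86.0) and 74.8% in replicate 2 (73.9 to 75.6). The miR-92a group held 14.9% (13.96 to 15.8) and 25.2% (24.4 to 26.1). The miR-19 group held 0 of 5715 reads in replicate 1, with an exact upper bound of 0.0645%, and 0.0403% in replicate 2. In CPM the miR-17 group summed to 1858 ± 261 and the miR-92a group to 461 ± 147. Reads of the shared arms miR-92a-3p and miR-19b-3p may be missing from these counts, as multimapping reads were kept outside them.

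The proportions within the miR-17 seed group, whose genes lie on 2 chromosomes, were nearly the same in both libraries. As the libraries share 1 donor record, this describes repeatability, and joint regulation of the loci was not tested. Mir93 made up 59.9% of the group in both libraries (58.5 to 61.2 and 58.8 to 61.0). Mir106b took 18.3% in replicate 1 and 18.1% in replicate 2, Mir17 took 16.4% and 16.0%, and Mir20a 5.45% and 5.97%. All 4 pairs of intervals overlapped. The direct ratio of Mir106b to Mir17, the first hairpins of the 2 transcripts, was 1.12 (1.02 to 1.23) and 1.13 (1.05 to 1.23).

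The share of the miR-92a seed group, in contrast, differed between the libraries, and most of its reads lay at Mir92-1. Mir92-1 made up 38.4% of miR-17-92 member reads in replicate 1 (36.1 to 40.8) and 56.7% in replicate 2 (55.1 to 58.3), and Mir17 made up 46.2% (43.8 to 48.6) and 31.4% (29.9 to 32.9). Their order turned over: Mir92-1 stood at 0.832 times Mir17 in replicate 1 (0.749 to 0.923) and at 1.81 times Mir17 in replicate 2 (1.68 to 1.94). These ratios lie within a library and need no scaling. The multimapping share was also higher in replicate 2, at 44.8% against 35.6%. Multimapping reads per sense miRNA read stood at 1.202 in replicate 1 and 1.236 in replicate 2. These values pool multimapping reads of every sequence, and the part of such reads in the Mir92-1 value was not tested.

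**Figure D3:**
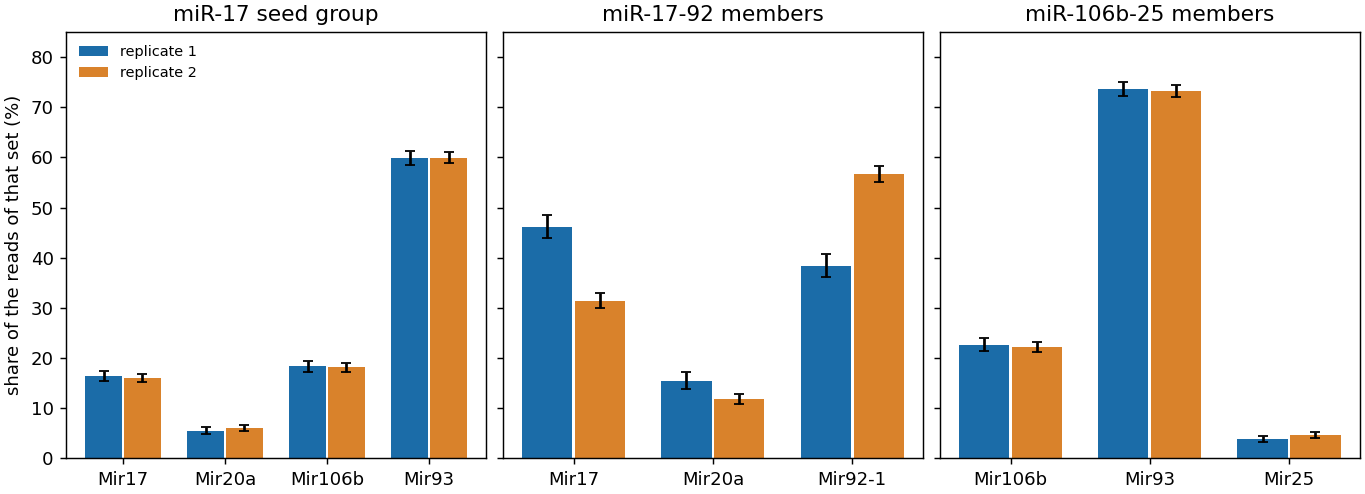
Share of reads in percent within the miR-17 seed group, the miR-17-92 members and the miR-106b-25 members, for replicate 1 (blue) and replicate 2 (orange); error bars are 95% exact binomial intervals, and Mir19a and Mir19b-1 are left out of the drawing. The bars pair closely in the left and right panels, and in the middle panel Mir92-1 is at 38.4% and 56.7% and Mir17 at 46.2% and 31.4%.

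Of the reads counted at the miR-92a loci, 94.3% lay at Mir92-1 in replicate 1 (662 of 702 reads, 92.3 to 95.9) and 96.2% in replicate 2 (2143 of 2227 reads, 95.4 to 97.0). The intervals overlapped only at their edges, and the difference between the libraries was not tested. Since a read of the mature arm alone matches both loci, this split need not be that of their transcripts.

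The X-linked miR-106a-363 cluster summed to far fewer counted reads than either paralogous cluster. Its loci outside the members were Mir106a with 6 and 10 reads in replicates 1 and 2, Mir20b with 14 and 20, Mir363 with 3 and 7, and Mir18b and Mir19b-2 with none. All 6 X-linked loci, Mir92-2 included, summed to 26.5 and 27.3 CPM. Reads of the arms that Mir92-2 and Mir19b-2 share with miR-17-92 loci may be missing from this sum. Mir20a exceeded its X-linked counterpart Mir20b by 18.9-fold (11.1 to 35.1) and 22.2-fold (14.2 to 36.6). Mir92-2 was the highest locus of this cluster in both libraries, as Mir92-1 was of miR-17-92 in replicate 2.

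Among every RefSeq arm with the same seeds, the members held nearly all reads of the miR-17 group and few of the miR-92a group. The 4 members took 99.6% of reads at the 7 loci with the miR-17 seed in both libraries. In the miR-92a group the 3 members took 7.75% in replicate 1 and 8.58% in replicate 2 of reads at 7 loci. Mir92b, a separate gene of chromosome 3 whose mature arm differs from miR-92a-3p at 2 of 21 bases (U10C and G21C, miR-92a-3p first), had 4226 CPM in replicate 1 and 5995 CPM in replicate 2. In counted reads it stood 11.8-fold (11.04 to 12.7) and 10.6-fold (10.2 to 11.1) above the sum of the 3 members with its seed. Mir92-1 and Mir92-2 share their mature arm, so its reads may lie partly among the multimapping reads, outside the member counts. Mir32, with the same seed, had 20.6 and 15.6 CPM.

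The libraries were then compared gene by gene, with an exact binomial test given TMM-scaled library sizes. It allows for counting noise alone, so it compares these 2 libraries and no conditions. Of the 9 members, 7 had at least 10 reads in total and were tested, and 4 were called at an adjusted p under 0.05, against 52.1% of all 472 genes tested. The members called higher in replicate 1 were 3 (background 24.6%), and 1 was called higher in replicate 2 (background 27.5%), counts that are too small on 7 genes to be read as a difference from the background. The median log2 ratio of replicate 1 over replicate 2 was 0.18 for these members and -0.07 for all genes. The median absolute log2 ratio was 0.31 for the members and 0.42 for all genes.

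Mir93 was higher in replicate 1 by a log2 ratio of 0.31 ± 0.03 (counting SE, binomial adjusted p = 6.04e-19), Mir106b by 0.33 ± 0.06 (adjusted p = 3.91e-07) and Mir17 by 0.35 ± 0.07 (adjusted p = 5.12e-07). Mir92-1 went the other way, at -0.77 ± 0.06 (adjusted p = 3.03e-35), and 121 of the 472 genes had a larger absolute ratio. Mir20a (0.18 ± 0.11), Mir25 (0.03 ± 0.14) and Mir92-2 (-0.14 ± 0.26) did not pass. Mir92b, the other abundant gene with the miR-92a seed, was likewise higher in replicate 2, at a log2 ratio of -0.48 ± 0.02.

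The calls of Mir93, Mir106b and Mir17 held with library totals of miRNA reads, but not with a scaling to all reads. All reads include the unmapped ones, 30.8% in replicate 1 and 14.6% in replicate 2. With CPM taken over all reads of a library, a scaling chosen after the data were seen, Mir93 stood at 362 in replicate 1 and 363 in replicate 2, Mir106b at 111 and 110, and Mir17 at 99.0 and 97.0, and none of them was called. On this scale the log2 ratios of Mir106b (0.0133) and Mir17 (0.0292) stayed above 0, and those of Mir93 (-0.00519) and Mir20a (-0.13) lay below it. Mir92-1 stood at 82.3 and 175 on that scale and was the only member called. This scaling moved the median of all genes by -0.22 on the log2 scale, and 26.8% of calls were then higher in replicate 1, against 116 of 246 with TMM. With the spread between the libraries allowed for in edgeR's exact test, 0 of the 7 members were called (background 0.424%), and 0 had an unadjusted p under 0.05. That spread was estimated from the same 2 libraries with their difference included, so the test could call little and does not show that the libraries agree. Among the blood-cell markers, Mir142, found in all blood lineages, was called higher in replicate 1 by the binomial test (149.9 CPM against 49.4), and so was the erythroid gene Mir451a, at a log2 ratio of 1.14 ± 0.19. The erythroid genes Mir144 and Mir486, the myeloid gene Mir223 (16.4 and 11.5 CPM) and the lymphocyte gene Mir150 (1701 and 1769 CPM) were not called. The part of these cells in the member values was not tested.

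**Figure D4:**
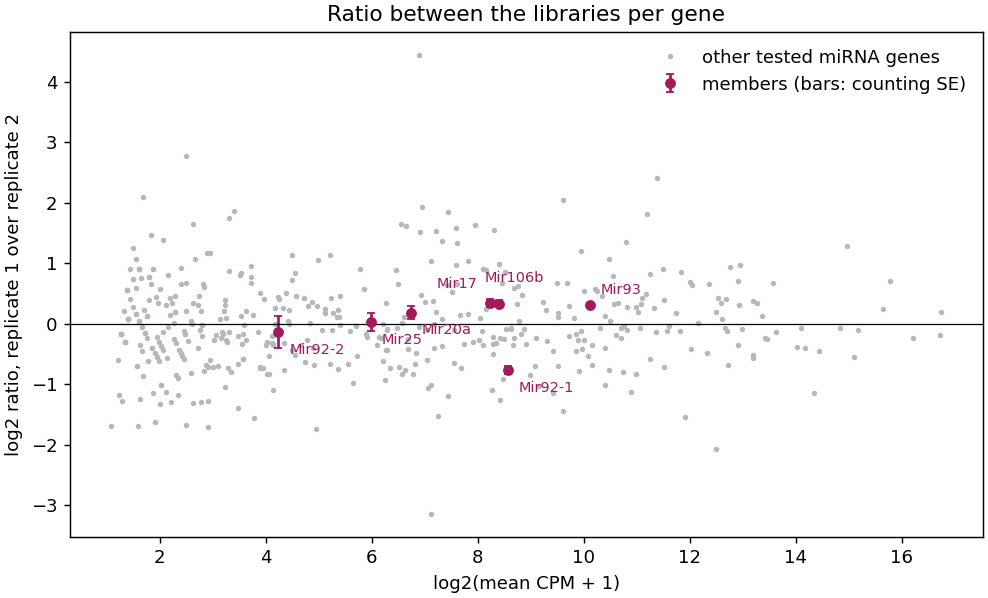
Log2 ratio of replicate 1 over replicate 2 (TMM-scaled CPM + 1) against log2(mean CPM + 1) for the 472 tested genes; grey points are other miRNA genes and coloured points the 7 tested members with their counting SE. The members lie inside the cloud of other genes, with Mir92-1 lowest at -0.77.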

How the data were processed

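The authors deposited 1 table of raw read counts per miRNA gene for each library, made on mm10 with GENCODE M21 per the deposited notes. Aligner, trimming and counter: not given in the sources used here. The 4 leading summary lines (unmapped and the like) entered the totals of all reads of a library, and no other total. Those totals served only the scaling to all reads and the shares of unmapped and multimapping reads. Counts on the strand of each gene were used. Members were matched by Ensembl identifier to symbols of GENCODE M21, and the members and lists were chosen with earlier results of these data known. Named are the 9 members, the 6 other loci of their clusters and the neighbours in mean CPM of each cluster's leading member. Mir92b, Mir32 and the blood-cell markers were named after values were seen.

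TMM factors (edgeR 4.0.16, R 4.3.3) came from the 472 genes with at least 10 reads in total, and log ratios used a pseudocount of 1 CPM. Binomial p-values and 95% Clopper-Pearson intervals came from scipy 1.17.1, with Benjamini-Hochberg adjustment over 472 genes. edgeR's exact test used a common dispersion from an intercept-only design. On simulated data with counting noise only, the binomial test called 2.21% of 272 unchanged genes and 80% of 50 genes changed 2-fold. These rates leave out any spread between libraries beyond counting. With 1 group, no quasi-likelihood test exists.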

Additional observations from a re-analysis of the deposited data

How the results depend on the processing

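The number of members called (4 with TMM) was 4 with library totals, with no minimum of reads, with at least 10 reads in each library and with both-strand counts, and these were Mir17, Mir106b, Mir93 and Mir92-1 each time. RLE size factors gave 5, with Mir20a added. edgeR's exact test gave 0, because it allows for a coefficient of variation of 0.351 between the libraries. That value was estimated from the same libraries that were compared. Scaling to all reads, an alternative chosen after seeing the data, gave 1. Removing the minimum of reads also changed the TMM factors and moved the median of all genes by -0.12. The log2 ratio of Mir25 changed sign with library totals (-0.00163), no minimum (-0.0718), at least 10 reads in each library (-0.0146) and all reads (-0.28). With all reads Mir20a (-0.13) and Mir93 (-0.00519) changed sign too. None of these 6 sign changes passed the binomial test. With CPM taken over all reads of a library, the miR-17-92 members summed to 261 and the miR-106b-25 members to 494. The ratio of the cluster sums was 1.95, and 3.72 without loci of shared mature sequence, a step that takes reads from the miR-17-92 sum alone. It ranged from 1.61 to 2.29 over the single libraries. No paired analysis was possible because there was 1 group. Mir19a and Mir19b-1 were too shallow for any ratio between the libraries.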
